A study of Homo sapiens with 9 samples.

Results

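The transcripts of the integrin subunits and of the laminin chains were measured in GIST-T1 cells, an imatinib-sensitive line of human gastrointestinal stromal tumor with a KIT exon 11 deletion (del560-79). The set was chosen by gene symbol, as integrin α and β subunits and laminin chains, and holds 35 of the 61209 symbols in the count table, 25 for integrins and 10 for laminins. Of these, 29 had enough counts to be tested (20 integrin and 9 laminin genes), among 16976 genes tested in all. The RNA-seq comprised 9 libraries of 1 cell line, with 3 libraries in each of 3 groups. The siNC group (S1, S2 and S3) received a non-target control siRNA, the siERRα group (S4, S5 and S6) received siRNA to ESRRA, which encodes estrogen-related receptor alpha (ERRα), and the imatinib group (S16, S17 and S18) received the non-target siRNA and 50 nM imatinib, an inhibitor of the KIT kinase. All cells carried the KIT deletion and went through the same lipid transfection. The siNC and siERRα cells were harvested 48 h after it. The labels of the imatinib libraries also give 48 h, without saying whether this counts from transfection or from the drug. When imatinib was added is not stated. Whether the 3 libraries of a group are separate cultures is not stated in the labels, and p-values therefore cover library-to-library spread, which may be technical. Whether S16 to S18 were prepared and sequenced together with S1 to S6 is not stated either, so that imatinib and any such difference in preparation cannot be told apart.

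Integrins are receptors made of 1 α and 1 β subunit that span the cell membrane and link the extracellular matrix to the actin cytoskeleton. The α subunit largely sets which matrix protein is bound. ITGA1, ITGA2, ITGA10 and ITGA11 bind collagen, ITGA3, ITGA6 and ITGA7 bind laminin, and ITGA5, ITGA8, ITGAV and ITGA2B bind ligands with the tripeptide motif Arg-Gly-Asp (RGD). ITGA4 and ITGA9 form a pair of related receptors for fibronectin, VCAM1 and other ligands, and the rest are known mainly from leukocytes. Laminins are trimers of an α, a β and a γ chain, and they build the sheet of the basement membrane, which in the gut wall surrounds smooth muscle cells and lies along the interstitial cells of Cajal, the lineage from which gastrointestinal stromal tumors arise.

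The 7 bases ATGTTCT were looked up in the 3' UTRs of the members. This heptamer had been picked from the knockdown values of these same libraries, and its presence is given as a description only. The heptamer was present in the canonical 3' UTR of 8 of the 35 members (22.9%), against 16.7% of 19090 genes with such a UTR. These shares were not matched for UTR length, which among the members with the heptamer ran from 337 bases (LAMA1) to 6758 bases (ITGA1). The holders were ITGA1, ITGA4, ITGA6, ITGA8, ITGA9, ITGAL, ITGB8 and LAMA1, and ITGA4 and ITGA9 held 2 copies each. The sites in the 3 members that both held the heptamer and passed the test after ERRα knockdown are shown with 10 bases on either side, 5′ to 3′ on the transcript strand of GRCh38, with the heptamer in capitals.
ITGA4, heptamer at chr2:181535964-181535970, last exon: tgttcaaaatATGTTCTttaaaaatat
ITGA4, heptamer at chr2:181537016-181537022, last exon: atggtgaggaATGTTCTgagatttgcg
ITGA6, heptamer at chr2:172505418-172505424, last exon: cagtgagtcgATGTTCTattttttgtt
ITGB8, heptamer at chr7:20411059-20411065, last exon: cagcctaaggATGTTCTttcccagaat
ITGA4 and ITGA6 were lower after knockdown and ITGB8 was higher, while the other 3 members that were lower (ITGB3, ITGB5 and LAMC1) held no copy. The other holders that could be tested, ITGA1, ITGA8 and ITGA9, did not pass the test after knockdown.

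Promoter sequences (250 bases before to 50 after the annotated start, RefSeq, GRCh38.p14) were at hand for 25 of the 35 members. The half-site bound by estrogen-related receptors, searched as TNAAGGTCA on both strands, was found in 0 of these 25 windows and in 0.963% of 27305 promoters. The AP-1 motif TGANTCA, which reads the same on both strands, was in 2 of 25 member promoters (8%) and in 7.76% of all. These were ITGA5, 6 bases before its start, and LAMA3, 125 and 69 bases before the RefSeq start used for the window. That LAMA3 start is an internal one, 183567 bases downstream of the GENCODE gene start, and the ITGB1 window also lies over 1000 bases inside its gene. Each site is shown on the strand of the gene with the motif in capitals, because both genes are described below.
ITGA5, chr12:54419255-54419283, minus strand: cctccccgcgtTGAGTCAttcgcctctgg
LAMA3, chr18:23872884-23872912, plus strand: ctggcacaggcTGACTCAtgtgtgaagtt
LAMA3, chr18:23872940-23872968, plus strand: ccttcctcaccTGAGTCAggcaggcccgg
A match of letters is not a binding site, and the absence of one concerns only this window.

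The libraries held 37527236 to 49363002 counts, and the 35 members together took 0.291% to 0.372% of them. Levels are given as CPM, the count of a gene scaled to a common library size, with sizes adjusted by TMM, which sets most genes equal between libraries. ESRRA, the target of the siRNA, stood at 40.7, 44.7 and 40.9 CPM in siNC, 1.405, 0.757 and 1.34 CPM in siERRα and 30.4, 31.99 and 35.6 CPM with imatinib, a difference of −5.18 ± 0.13 (log2 fold change ± SE) after knockdown. KIT was present in every library at 1272 to 1630 CPM, with ANO1 and ETV1, the other defining transcripts of this tumor, at 243 CPM or more. Marker lists of other cell types were summed in each library. The sum of 9 leukocyte markers was 36.91 to 44.002 CPM in siNC, 33.3 to 37.8 CPM in siERRα and 31.8 to 32.3 CPM with imatinib, nearly all of it CORO1A, while TYROBP was at 0 throughout and PTPRC was at 0 in 8 libraries and at 0.0198 CPM in S3. The sum of 7 smooth muscle markers was 508 to 536 CPM in siNC, 331 to 353 CPM in siERRα and 622 to 670 CPM with imatinib, nearly all of it ACTA2 and TAGLN, while MYH11 was at 0.358 CPM or less and DES at 0.0629 CPM or less. The sum of 10 epithelial markers was 302 to 315 CPM in siNC, 279.7 to 303 CPM in siERRα and 193 to 223 CPM with imatinib, nearly all of it KRT18, with KRT5 and KRT14 at 0. The sum of 7 endothelial markers was 1.81 to 2.28, 1.73 to 2.12 and 2.35 to 3.47 CPM in the same order of groups. The mitochondrial share of counts was 0.846% to 0.989% in siNC, 0.943% to 1.03% in siERRα and 1.48% to 1.54% with imatinib. The part of these differences in the results on integrins and laminins was not tested. In bulk RNA, fewer cells with a transcript and less transcript per cell cannot be told apart. S5 stood furthest from the other siERRα libraries in its counts over all genes and was the highest of the siERRα libraries for 17 of the 29 tested members, and S16 was the highest imatinib library for 8 of the 13 members that rose with imatinib.

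To compare genes with each other, CPM was divided by the length in kilobases of all annotated exons of the gene (CPM per kb). In siNC cells the highest members were ITGA5 at 63.6 ± 1.41 CPM per kb (mean ± SD, n = 3), LAMC1 at 57.7 ± 1.18, LAMB1 at 47.2 ± 1.38 and ITGB5 at 31.9 ± 1.19. Next came ITGA4 at 20.1 ± 1.23 CPM per kb and ITGB1 at 13.4 ± 0.592 CPM per kb. The leading transcripts were thus those of the fibronectin receptor subunit ITGA5 and of LAMB1 and LAMC1, the β and γ chains of the most widespread laminins. The order near the top depends on the length used, because LAMB1 and ITGB1 have long exon unions: per kb of the longest annotated transcript the levels were 130.3 for LAMB1, 93.9 for ITGA5, 61.5 for LAMC1, 46.9 for ITGB5, 34.8 for ITGB1 and 31.6 for ITGA4.

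The middle of the range held ITGA6 (8.61 ± 0.484 CPM per kb), ITGA9 (7.16 ± 0.339), LAMB2 (6.77 ± 0.643), ITGAE (6.08 ± 0.204), ITGAV (5.96 ± 0.400) and LAMA5 (4.81 ± 0.331), all from 4 to 9 CPM per kb. ITGA9 and LAMB2 lay within 1 SD of each other, as did ITGAE and ITGAV. The place of ITGAV depends on the length used. By the longest transcript it stood at 14.5 CPM per kb, above ITGAE at 10.6 and ITGA6 at 9.89. ITGA2, ITGA3 and ITGA11 lay between 1.90 and 2.99 CPM per kb. The other members that could be tested were below 1 CPM per kb, and among them ITGB3 stood at 0.501 ± 0.0945, ITGB4, the partner of ITGA6 in hemidesmosomes, at 0.289 ± 0.0309, and ITGB8 lowest of all at 0.0123 ± 0.00732 CPM per kb. The 6 members below the expression filter were ITGAL, ITGAM, ITGAX and ITGB2, which pair on leukocytes, ITGB6, an epithelial β subunit, and LAMA1, an embryonic laminin chain. None of the 6 exceeded 7 counts in any library, with totals over the 9 libraries of 5 for ITGAL, 3 for ITGAM, 7 for ITGAX, 26 for ITGB2, 1 for ITGB6 and 4 for LAMA1. A count of 0 allows up to 0.0595 to 0.0820 CPM at the depth of these libraries (3 counts, counting error only).

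**Figure D1:**
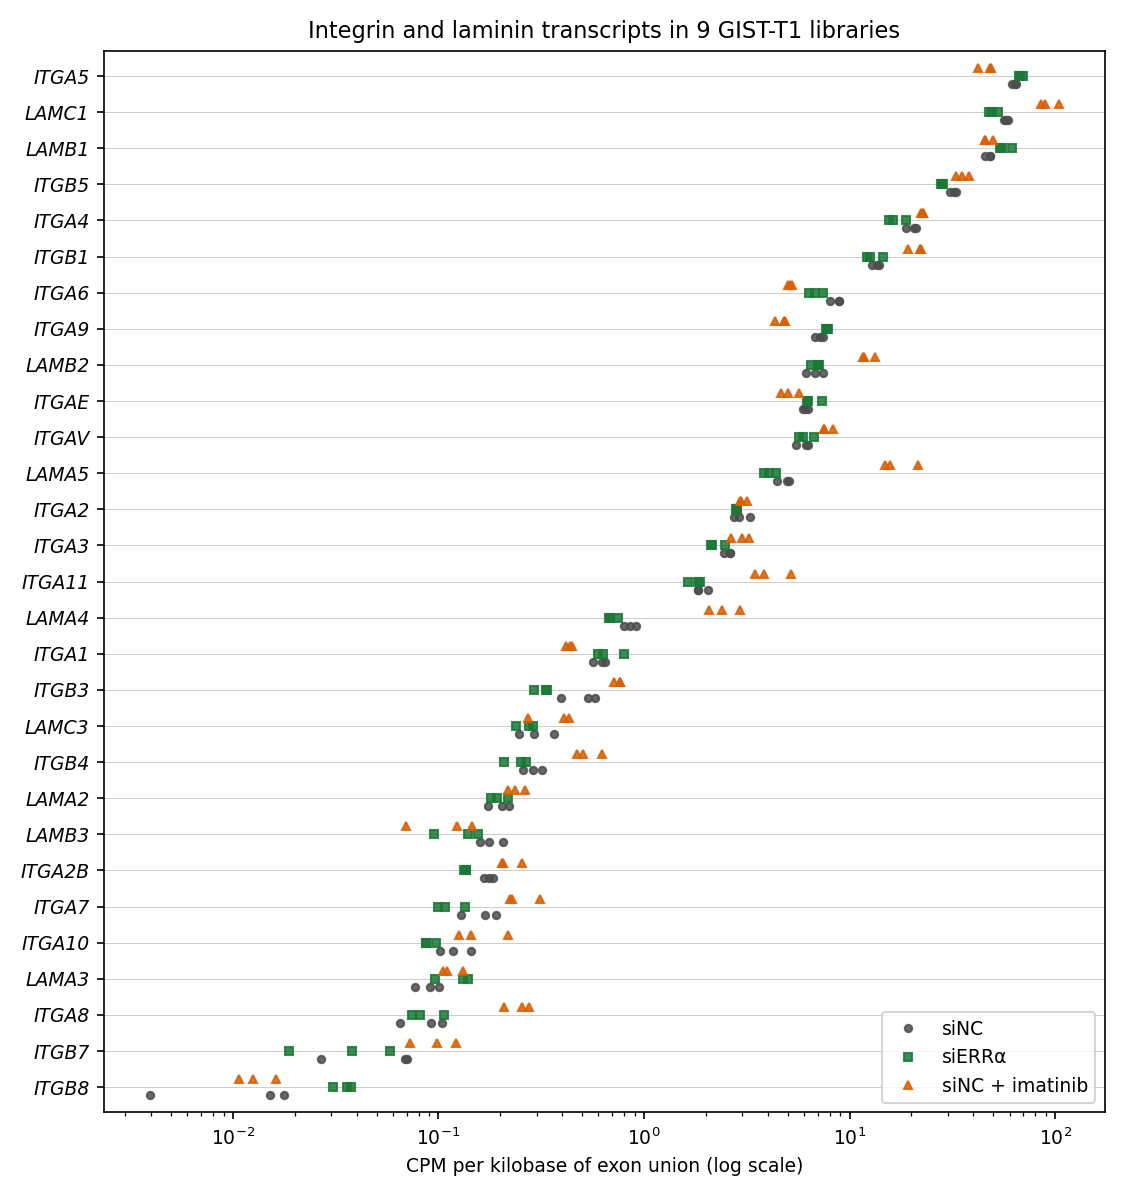
Level of the 29 tested integrin and laminin genes in each of the 9 libraries, in CPM per kilobase of exon union on a log scale, ordered by the siNC mean; each point is 1 library. ITGA5, LAMC1 and LAMB1 lie highest, and the imatinib libraries stand to the right of the others for LAMA5, LAMA4 and ITGA11 and to the left for ITGA5, ITGA6 and ITGA9.

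Within each family, a few genes supplied most of the transcript. Among the α subunits ITGA5 made up 52.9% ± 1.52 (SD, n = 3) of the summed CPM per kb in siNC and ITGA4 16.8% ± 0.805. ITGB5, which pairs with ITGAV, made up 69.1% ± 1.16 of the β subunits and ITGB1, the subunit with the most α partners, 29.03% ± 1.01, or 56.7% and 42.1% by the longest transcript. LAMA5 made up 80.7% ± 1.75 of the laminin α chains and LAMA4 14.4% ± 1.11. With imatinib the share of ITGA5 was 44.9% ± 1.91 and that of ITGA4 21.97% ± 0.963, the share of ITGB1 was 36.5% ± 2.53 and that of ITGB5 61.1% ± 2.51. By the longest transcript these were 50.5% for ITGB1 and 47.9% for ITGB5, so that which β subunit led with imatinib depends on the length used. In each of these 4 genes the 3 imatinib libraries lay apart from the 3 siNC libraries. After ERRα knockdown the share of ITGA5 was 56.6% ± 1.89, that of ITGA4 14.03% ± 1.04 and that of ITGB5 67.3% ± 2.23, and the siERRα and siNC libraries overlapped for ITGA5 and ITGB5 but not for ITGA4.

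**Figure D2:**
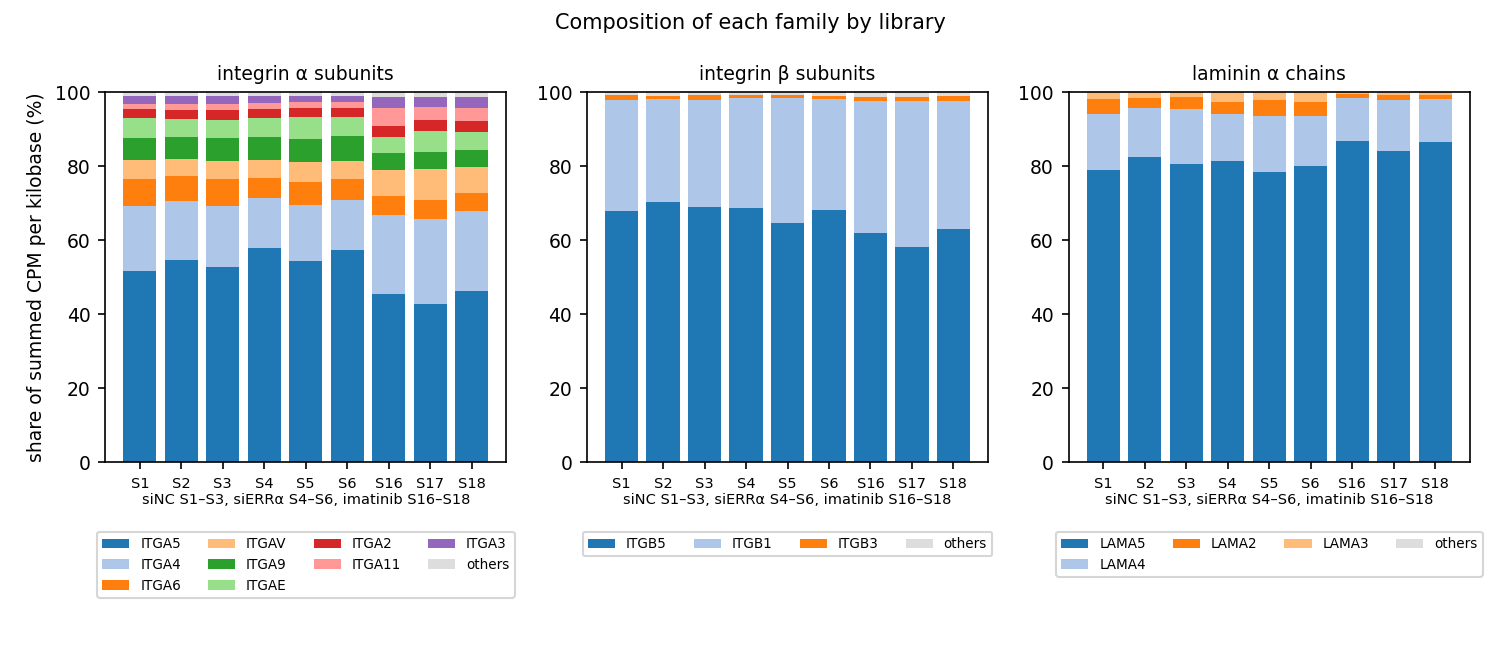
Share of each gene in the summed CPM per kilobase of its family (percent, union of exons), in each of the 9 libraries; genes with a mean share under 1% are pooled as others. By this length ITGA5, ITGB5 and LAMA5 take the largest shares in every library, and the ITGB1 and ITGA4 shares are larger in the 3 imatinib libraries than in the 3 siNC libraries.

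The first comparison asked which of these genes change when ERRα is knocked down. After knockdown 5 members were lower and 2 were higher than in siNC, and 22 did not pass the test (edgeR's quasi-likelihood test, Benjamini-Hochberg adjusted p under 0.05 over all genes tested). Over all genes 12.6% were lower and 11.4% were higher, and the members' shares were 17.2% and 6.90%. The lower members were the laminin receptor subunit ITGA6, the fibronectin and VCAM1 receptor subunit ITGA4, the RGD receptor β subunits ITGB3 and ITGB5, and the laminin γ chain LAMC1. Higher were the laminin β chain LAMB1 and, at very low counts, ITGB8. The changes were small, and of the members called only ITGB3 and ITGB8 differed by at least 0.5 on the log2 scale, where 5.28% of all genes were called lower and 1.98% higher. The median log2 fold change of the 29 members was −0.17, against 0.01 over all genes.

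ITGB3, the β subunit of the vitronectin receptor, (GRCh38 chr17:47253827-47313743, plus strand) stood at 3.65, 2.698 and 3.93 CPM in siNC, 1.99, 2.29 and 2.26 CPM in siERRα and 5.205, 4.904 and 5.22 CPM with imatinib. Every siERRα library lay below every siNC library, and the log2 fold change was −0.66 ± 0.15, adjusted p = 0.00307 (edgeR). ITGA6 (chr2:172427354-172506459, plus strand) stood at 59.6, 53.8 and 59.1 CPM in siNC, 42.6, 49.8 and 45.2 CPM in siERRα and 35.2, 34.1 and 33.5 CPM with imatinib. Its siNC and siERRα libraries did not overlap, with a log2 fold change of −0.33 ± 0.07, adjusted p = 0.00175, and the imatinib libraries were lower still. ITGA4 stood at 225, 199.7 and 219 CPM in siNC, 173, 199.7 and 166 CPM in siERRα and 241, 244 and 238 CPM with imatinib. In ITGA4 the highest knockdown library, S5, lay level with the lowest siNC library, S2, and the log2 fold change was −0.26 ± 0.07, adjusted p = 0.00745. ITGB5 stood at 199.9, 209 and 215 CPM in siNC, 183, 182 and 186 CPM in siERRα and 248, 215 and 229.7 CPM with imatinib. Its siERRα libraries lay close together below siNC, with a log2 fold change of −0.18 ± 0.06, adjusted p = 0.0271, and the call was lost when S2, S3 or S4 was left out (adjusted p = 0.0533, 0.106 and 0.0711).

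ITGB8, a β subunit of ITGAV that takes part in the activation of TGF-β, had 12, 9 and 3 counts in siNC, 27, 26 and 18 in siERRα and 7, 6 and 9 with imatinib. These correspond to 0.268, 0.229 and 0.0595 CPM in siNC, 0.566, 0.547 and 0.463 CPM in siERRα and 0.190, 0.162 and 0.246 CPM with imatinib. The siERRα libraries lay above all others, with a log2 fold change of 1.53 ± 0.42, adjusted p = 0.0116 (edgeR), and with S3, the siNC library of 3 counts, left out it was 1.06 with an adjusted p of 0.0871. No other integrin gene passed the test after knockdown. For ITGA5, the most abundant α subunit, the log2 fold change was 0.09 ± 0.06, adjusted p = 0.257, and for ITGB1 it was −0.04 ± 0.07, adjusted p = 0.754. The 3 siERRα libraries of ITGA5 lay above the 3 siNC libraries by less than the test could call. The 4 collagen-binding α subunits had log2 fold changes of 0.15 (ITGA1), −0.08 (ITGA2), −0.41 (ITGA10) and −0.10 (ITGA11), and none passed.

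Among the laminins, LAMC1, the γ chain of most laminin trimers (chr1:183023420-183145592, plus strand), stood at 486, 478 and 498 CPM in siNC, 417, 446 and 404 CPM in siERRα and 884, 752 and 722 CPM with imatinib. The siERRα libraries lay below siNC and the imatinib libraries above it, and the log2 fold change after knockdown was −0.21 ± 0.07, adjusted p = 0.0282 (edgeR). This call was lost in 4 of the 9 fits that left out a library (S1, S3, S4 or S6), with adjusted p values of 0.0659 to 0.0939. LAMB1 (chr7:107923799-108003213, minus strand) stood at 894, 848 and 891 CPM in siNC, 1019.7, 1145 and 1002 CPM in siERRα and 928, 847 and 846 CPM with imatinib. It was higher in every siERRα library than in any other library, with a log2 fold change of 0.27 ± 0.06, adjusted p = 0.00273. Thus the β chain LAMB1 and the γ chain LAMC1, which occur in the same trimers, differed from siNC in opposite directions.

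The α chains LAMA4 and LAMA5 were below siNC in every knockdown library without passing the test, with log2 fold changes of −0.29 ± 0.11, adjusted p = 0.0714 and −0.23 ± 0.12, adjusted p = 0.190 (edgeR). Fitted on the 6 libraries of siNC and siERRα alone, without the imatinib libraries, both passed (adjusted p = 0.0223 for LAMA4 and 0.0203 for LAMA5). Without S16 alone they also passed, with adjusted p values of 0.0225 and 0.0150, and in both genes S16 was the highest imatinib library. With no filter on low counts both passed too (adjusted p = 0.0298 and 0.0141). LAMA4 passed in 6 of 17 other fits, among them those without S5 (0.0467) or S18 (0.0367), and LAMA5 passed in 3. For the epithelial chain LAMA3 the value was 0.45 ± 0.19, adjusted p = 0.106, and it passed at 0.0296 when S5 was left out. LAMB2 and LAMA2 had log2 fold changes of 0.02 and −0.02 after knockdown.

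**Figure D3:**
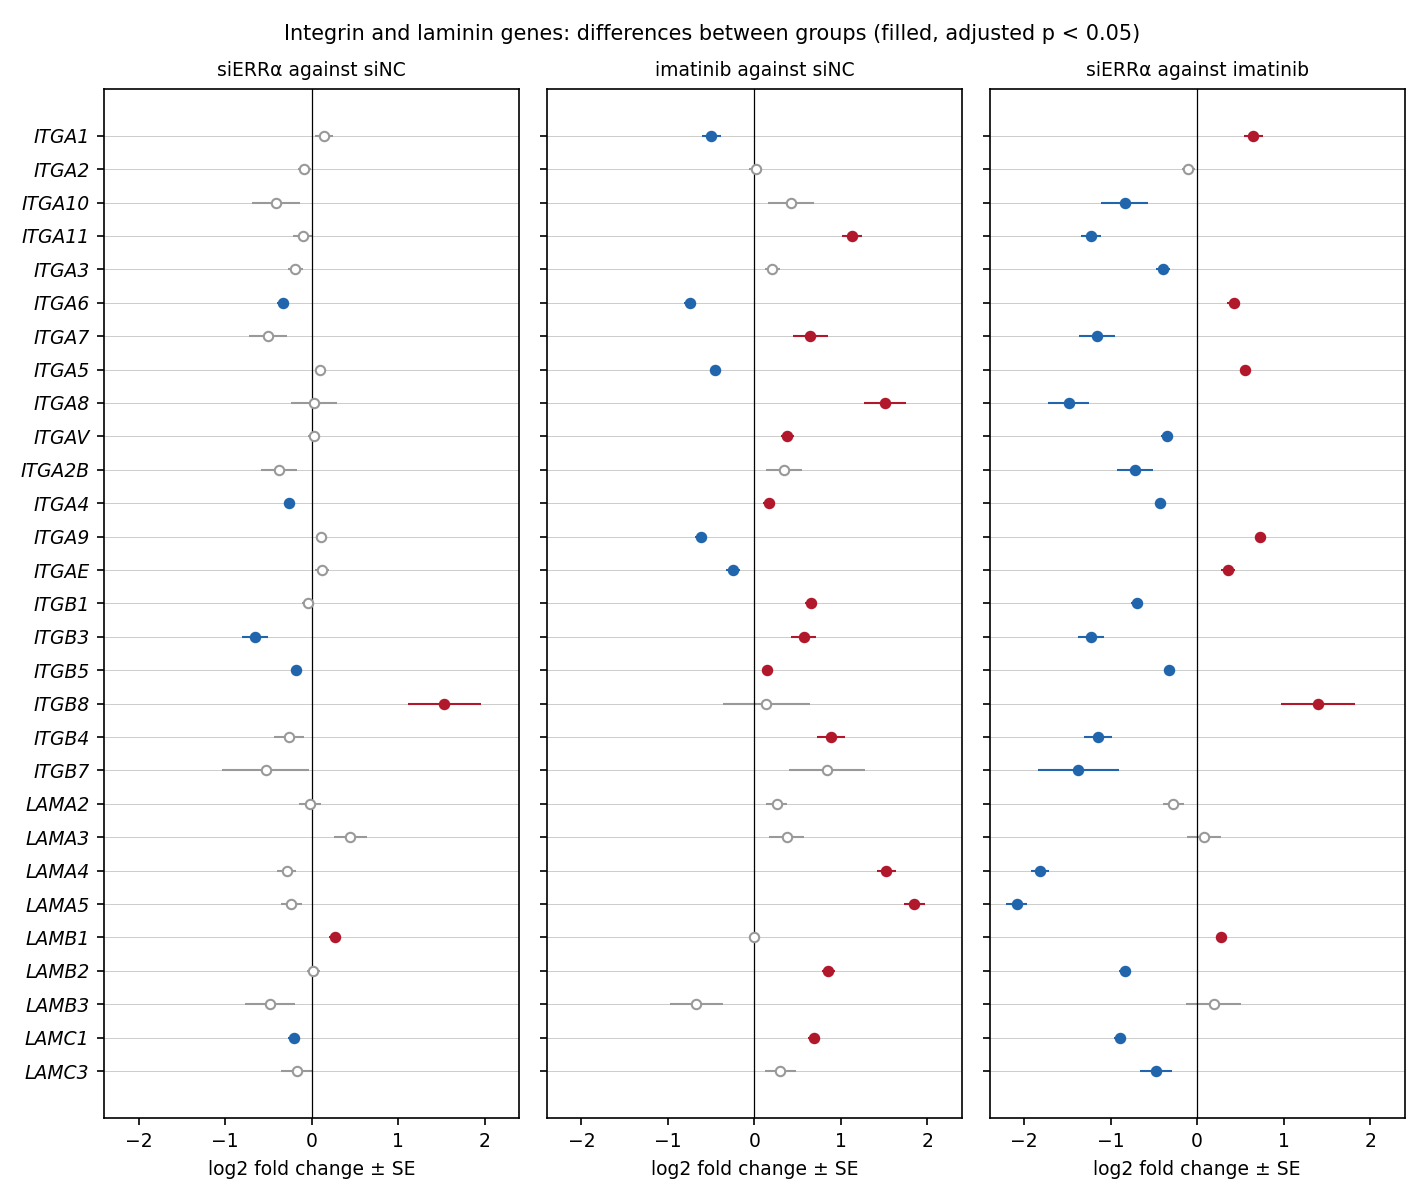
Log2 fold change with its SE for the 29 tested members in the 3 comparisons; filled points passed the test (adjusted p under 0.05, edgeR; blue lower, red higher) and open grey points did not. After ERRα knockdown 7 points are filled, against 18 with imatinib and 25 between siERRα and imatinib, where LAMA5 and LAMA4 lie furthest to the left.

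With imatinib, 13 members were higher and 5 were lower than in siNC, and 11 did not pass the test. Over all genes 21.4% were higher and 20.3% lower, and among the members 44.8% were higher and 17.2% lower. The members that rose were 4 laminin chains (LAMA5, LAMA4, LAMB2 and LAMC1), the β subunits ITGB1, ITGB3, ITGB4 and ITGB5, and the α subunits ITGA11, ITGA8, ITGA7, ITGAV and ITGA4. Those that fell were the α subunits ITGA1, ITGA5, ITGA6, ITGA9 and ITGAE. The median log2 fold change of the 29 members was 0.34, against 0.00226 over all genes. When a log2 difference of 0.5 in either direction was also required, 10 members were higher and 2 lower (34.5% and 6.90%), against 10.6% and 7.02% of all genes.

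The largest rises were in the laminin α chains. LAMA5, the α chain of the laminins of mature basement membranes (chr20:62307955-62367312, minus strand), stood at 63.4, 72.1 and 70.9 CPM in siNC, 62.8, 55.0 and 57.6 CPM in siERRα and 309, 212 and 223 CPM with imatinib. Every imatinib library lay well above all others, at 361% of the siNC mean, and S16 was the highest, with a log2 fold change of 1.85 ± 0.12, adjusted p = 7.81e-08 (edgeR). LAMA4, the α chain known from vessels, muscle and other mesenchymal tissue (chr6:112107931-112254939, minus strand), stood at 10.2, 9.62 and 10.9 CPM in siNC, 8.07, 8.96 and 8.18 CPM in siERRα and 35.3, 28.7 and 24.9 CPM with imatinib. It reached 289% of the siNC mean, with a log2 fold change of 1.53 ± 0.11, adjusted p = 1.93e-09, and the groups did not overlap. Both were also called with S16 left out.

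LAMB2, the β chain that replaces LAMB1 at synapses and in mature kidney and muscle basement membranes, stood at 41.99, 50.8 and 46.6 CPM in siNC, 48.3, 44.5 and 48.5 CPM in siERRα and 91.0, 79.9 and 80.9 CPM with imatinib. The imatinib libraries were clear of both other groups, with a log2 fold change of 0.85 ± 0.07, adjusted p = 3.64e-08 (edgeR). LAMC1 rose to 161% of its siNC mean, with a log2 fold change of 0.69 ± 0.07, adjusted p = 1.26e-07. LAMB1 did not pass the test (−0.01 ± 0.06, adjusted p = 0.939), and S16, S17 and S18 lay on both sides of the siNC libraries. The remaining laminin genes did not pass: LAMA2 was at 0.26 ± 0.12, LAMA3 at 0.37 ± 0.20, LAMB3, a chain of epithelial laminin, at −0.67 ± 0.31 and LAMC3 at 0.30 ± 0.18 (log2 fold change ± SE).

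Of the β subunits, ITGB1 (chr10:32887273-33005792, minus strand) stood at 197, 186 and 203 CPM in siNC, 176, 212 and 183 CPM in siERRα and 319, 324 and 281 CPM with imatinib. All imatinib libraries lay above the rest, at 158% of the siNC mean, and the log2 fold change was 0.66 ± 0.07, adjusted p = 5.42e-07 (edgeR). For ITGB3 the log2 fold change was 0.57 ± 0.14, adjusted p = 0.00293, on the opposite side from knockdown. ITGB4 stood at 1.75, 1.96 and 2.16 CPM in siNC, 1.698, 1.41 and 1.802 CPM in siERRα and 4.23, 3.42 and 3.197 CPM with imatinib. The imatinib libraries of ITGB4 did not overlap with the others, and the log2 fold change was 0.88 ± 0.16, adjusted p = 0.000213. The log2 fold change of ITGB5 was 0.15 ± 0.06, adjusted p = 0.0441, with S17 level with siNC library S3, and this call was lost in 11 of 17 other fits. ITGB7, a leukocyte subunit, stood at 0.313, 0.305 and 0.119 CPM in siNC, 0.0839, 0.168 and 0.257 CPM in siERRα and 0.325, 0.539 and 0.437 CPM with imatinib. It had at most 20 counts in a library and did not pass against siNC (0.84 ± 0.44, adjusted p = 0.137), and ITGB8 had a log2 fold change of 0.14 ± 0.51.

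The α subunits moved in both directions. ITGA11, a collagen receptor of mesenchymal cells, stood at 19.8, 19.9 and 22.3 CPM in siNC, 19.9, 20.3 and 17.7 CPM in siERRα and 56.5, 37.6 and 41.5 CPM with imatinib. The imatinib libraries were at 219% of the siNC mean, S16 being the highest, with a log2 fold change of 1.13 ± 0.12, adjusted p = 9.83e-07 (edgeR). ITGA8, an RGD receptor subunit of smooth muscle and mesenchyme, stood at 0.671, 0.763 and 0.476 CPM in siNC, 0.545, 0.778 and 0.592 CPM in siERRα and 1.52, 2.02 and 1.86 CPM with imatinib. This low transcript rose in every imatinib library, with a log2 fold change of 1.51 ± 0.24, adjusted p = 4.48e-05. ITGA7, a laminin receptor subunit of muscle, stood at 1.16, 1.73 and 1.53 CPM in siNC, 1.22, 0.905 and 0.978 CPM in siERRα and 2.82, 2.02 and 2.08 CPM with imatinib. The imatinib libraries lay above all others, while siNC and siERRα overlapped, and the log2 fold change was 0.65 ± 0.20, adjusted p = 0.0135, but the call was lost without S1 (adjusted p = 0.0808) or without S16 (0.0973). ITGAV, the partner of ITGB3, ITGB5 and ITGB8, stood at 121, 107 and 119 CPM in siNC, 114, 129.8 and 109.7 CPM in siERRα and 145, 161 and 145 CPM with imatinib. Its log2 fold change was 0.38 ± 0.07, adjusted p = 0.000227. ITGA4 was slightly higher, at 0.17 ± 0.07, adjusted p = 0.0466, and this call was lost in 9 of 17 other fits, although no imatinib library overlapped with siNC.

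ITGA5, the fibronectin receptor subunit (chr12:54395261-54419266, minus strand), stood at 457, 473 and 477 CPM in siNC, 512, 495 and 496 CPM in siERRα and 358, 312 and 356 CPM with imatinib. All imatinib libraries lay below all siNC and siERRα libraries, at 72.9% of the siNC mean, with a log2 fold change of −0.46 ± 0.06, adjusted p = 3.07e-06 (edgeR). ITGA6 was at 59.6% of its siNC mean, with a log2 fold change of −0.75 ± 0.07, adjusted p = 9.29e-08. It fell both with imatinib and after knockdown, and more with imatinib. ITGA9 stood at 59.6, 56.2 and 61.7 CPM in siNC, 63.2, 64.7 and 64.01 CPM in siERRα and 40.1, 35.9 and 39.7 CPM with imatinib. It was lower with imatinib, at a log2 fold change of −0.62 ± 0.06, adjusted p = 3.32e-07, and was not called after knockdown. ITGA1, a collagen receptor subunit, stood at 11.6, 10.4 and 11.9 CPM in siNC, 11.7, 14.9 and 11.1 CPM in siERRα and 7.73, 8.27 and 8.09 CPM with imatinib. The imatinib libraries lay below all others, with a log2 fold change of −0.50 ± 0.11, adjusted p = 0.00108. ITGAE, known from T cells of the mucosa, stood at 41.6, 38.96 and 39.9 CPM in siNC, 40.8, 48.2 and 41.6 CPM in siERRα and 30.8, 37.6 and 33.3 CPM with imatinib. Its imatinib libraries were lowest, with a log2 fold change of −0.24 ± 0.08, adjusted p = 0.0211, a call that was lost without S1, S16 or S18.

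Of the collagen-binding α subunits, 1 rose (ITGA11), 1 fell (ITGA1) and 2 did not pass with imatinib, ITGA2 at 0.02 ± 0.08 and ITGA10 at 0.43 ± 0.26 (log2 fold change ± SE). Of the laminin-binding α subunits, 1 rose (ITGA7), 1 fell (ITGA6) and ITGA3 did not pass, at 0.21 ± 0.08, adjusted p = 0.0539 (edgeR). ITGA3 stood at 23.9, 25.6 and 25.7 CPM in siNC, 24.3, 20.8 and 21.03 CPM in siERRα and 31.8, 25.9 and 29.2 CPM with imatinib. Of the RGD-binding α subunits, 2 rose (ITGA8 and ITGAV), 1 fell (ITGA5) and ITGA2B, the platelet subunit, did not pass, at 0.34 ± 0.20. Of 6 platelet and megakaryocyte markers, PF4, PPBP and GP9 were at 0 in all libraries, and the sum of the 6 was 0.112 to 0.179 CPM in siNC, 0.273 to 0.379 CPM in siERRα and 0.108 to 0.164 CPM with imatinib.

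**Figure D4:**
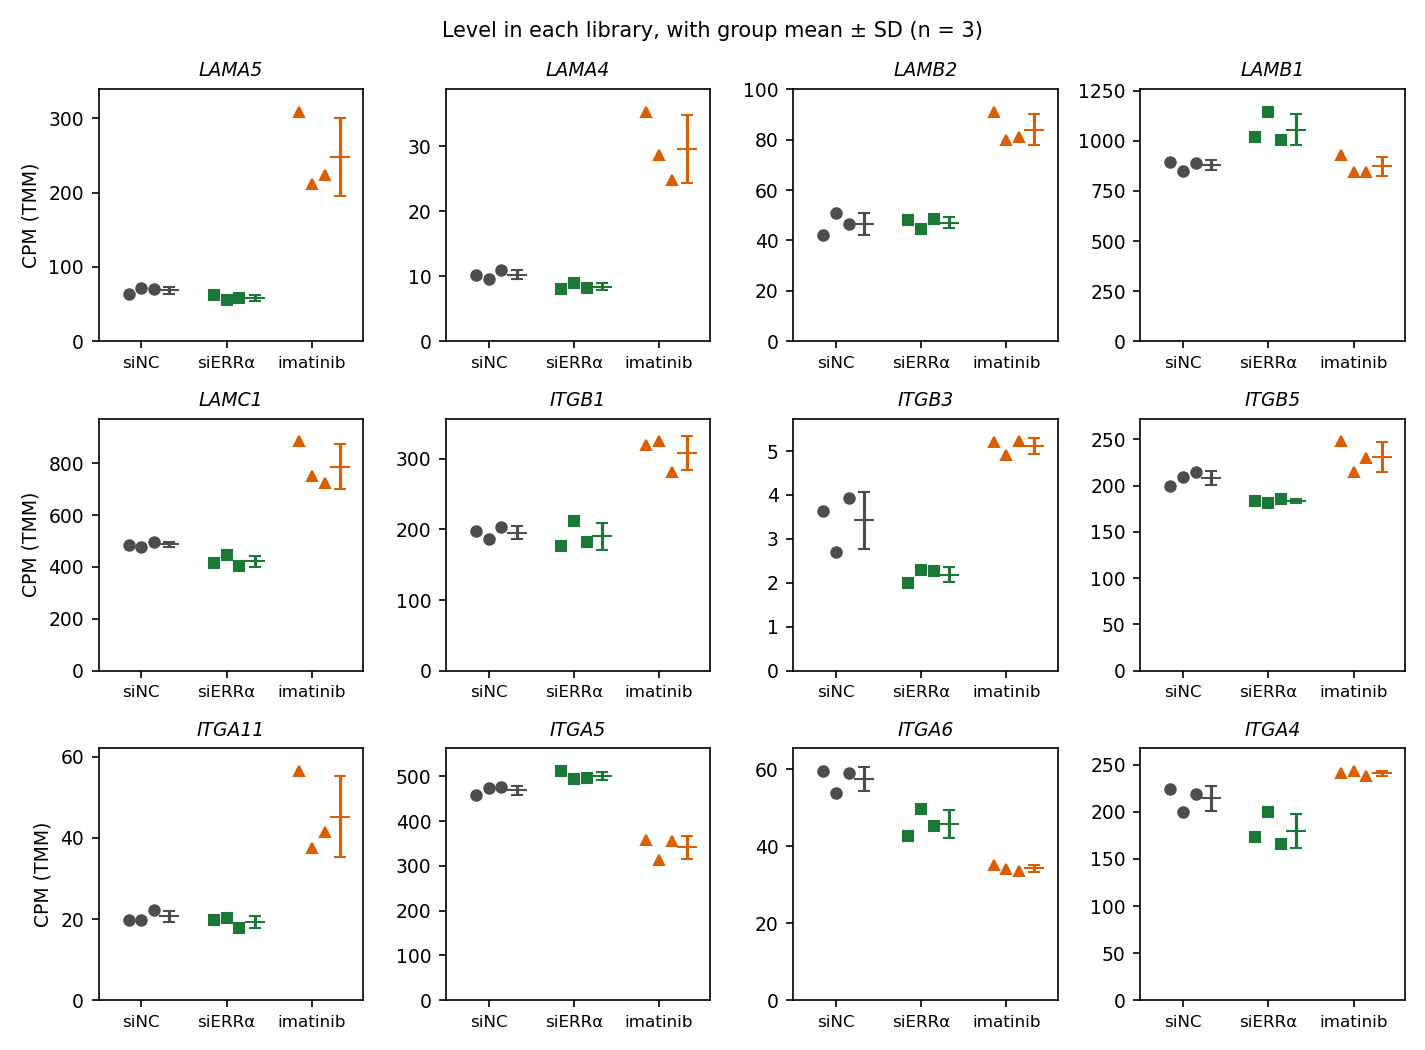
Level in CPM of 12 members in each library, with the group mean and SD beside the 3 points of each group (axes start at 0). LAMA5, LAMA4, LAMB2, LAMC1, ITGB1 and ITGA11 are highest in the imatinib libraries, ITGA5 and ITGA6 are lowest there, LAMB1 is highest in the siERRα libraries, and ITGB3 lies below siNC in siERRα and above it with imatinib.

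Summed over a family, the laminin α chains stood at 5.61, 6.11 and 6.16 CPM per kb in siNC, at 5.39, 4.91 and 5.04 in siERRα and at 24.9, 17.6 and 18.1 with imatinib. The β chain sum was 54.2 ± 0.879 CPM per kb in siNC, 63.8 ± 3.82 in siERRα and 59.3 ± 3.46 with imatinib (SD, n = 3). Laminin α transcript was therefore scarce beside β transcript, at 11.0% ± 0.610 of the β sum in siNC, 8.04% ± 0.760 in siERRα and 33.8% ± 4.75 with imatinib, and no library of 1 group overlapped with another. The imatinib value was 308% of that in siNC, and 283% with S16 left out. By the longest transcript the α sum was 5.84%, 4.24% and 18.3% of the β sum in the same order, so the level depends on the length used and the order of the groups does not. The γ chain sum was 58.0 ± 1.15 CPM per kb in siNC, 50.3 ± 2.51 in siERRα and 93.5 ± 10.2 with imatinib (SD, n = 3). Unlike the β sum, it was lower in siERRα than in siNC. The percentages and the separation of groups given here are for the β sum. After knockdown the α sum was at 85.8% of its siNC mean. LAMC1, which made up 99.5% of the γ sum in siNC, was at 86.6%. The lower α share in siERRα was therefore seen beside β transcript and hardly beside γ transcript. With imatinib the α sum was at 339% of its siNC mean and LAMC1 at 161%, so the rise beside γ transcript was smaller than beside β.

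The integrin α sum was 120.1 ± 2.65 CPM per kb in siNC, 119.9 ± 3.12 in siERRα and 103.1 ± 3.71 with imatinib. The β sum was 46.2 ± 1.49 CPM per kb in siNC, 41.9 ± 1.14 in siERRα and 58.0 ± 3.00 with imatinib. As a share of the α sum, β transcript was 38.5% ± 0.828 in siNC, 34.9% ± 0.822 in siERRα and 56.2% ± 2.17 with imatinib, again with no overlap between libraries of different groups. By the longest transcript it was 46.1%, 42.3% and 68.9% in the same order, so here too the level depends on the length used and the order of the groups does not. These sums describe transcript and not receptor at the cell surface, and as they run over chosen members no test is given for them.

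**Figure D5:**
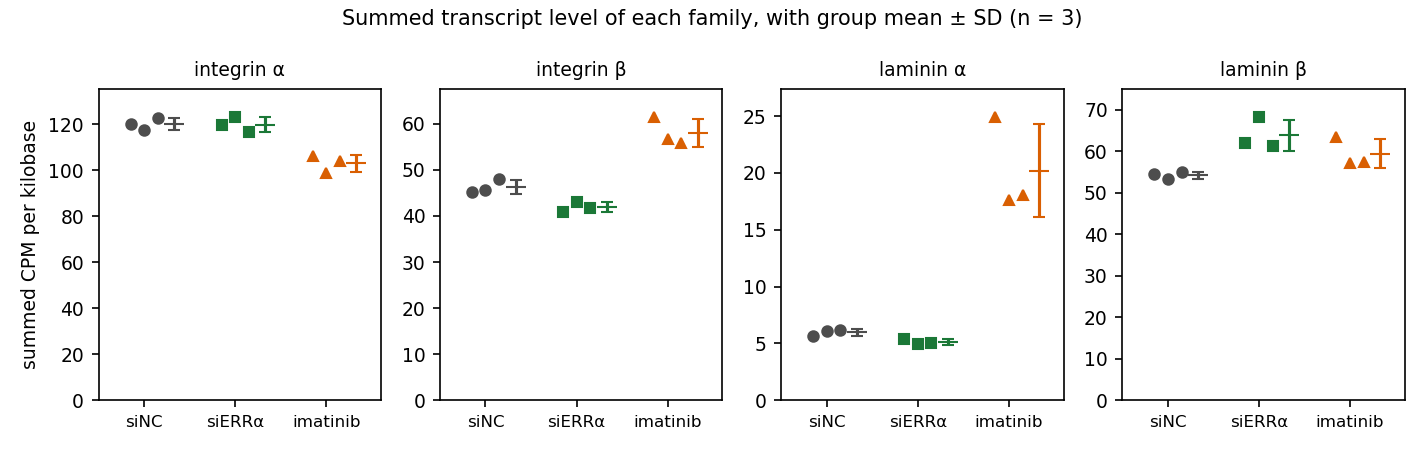
Summed CPM per kilobase of the integrin α, integrin β, laminin α and laminin β genes in each library, with the group mean and SD beside the points (n = 3 per group, axes start at 0). The laminin α sum is 5.96 in siNC and 20.2 with imatinib, and the integrin α and β sums lie closer together with imatinib, at 103.1 and 58.0, than in siNC, at 120.1 and 46.2.

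Compared directly with imatinib, the knockdown libraries were lower for 18 members and higher for 7, and 4 did not pass the test (ITGA2, LAMA2, LAMA3 and LAMB3). Over all genes 26.6% were lower and 25.6% higher in this comparison, and among the members 62.1% were lower and 24.1% higher. Lower after knockdown than with imatinib were 13 of the 20 integrin genes and 5 of the 9 laminin genes. The median log2 fold change was −0.42 over the members and −0.00449 over all genes. The largest differences were LAMA5 at −2.09 ± 0.12, adjusted p = 1.30e-08, LAMA4 at −1.82 ± 0.11, adjusted p = 9.90e-11 and ITGA8 at −1.49 ± 0.24, adjusted p = 3.11e-05 (edgeR). Also lower in siERRα were LAMB2 at −0.83 ± 0.07, ITGA11 at −1.23 ± 0.12, ITGA7 at −1.15 ± 0.21, ITGB4 at −1.15 ± 0.17, ITGA4 at −0.42 ± 0.07, ITGAV at −0.35 ± 0.07 and ITGB5 at −0.33 ± 0.06 (log2 fold change ± SE). The 7 members higher in siERRα than with imatinib were ITGB8, ITGA9, ITGA1, ITGA5, ITGA6, ITGAE and LAMB1, with log2 fold changes of 1.39, 0.73, 0.65, 0.55, 0.42, 0.36 and 0.27. Against siNC, only ITGB8 and LAMB1 among them were called higher after knockdown, and ITGA6 was called lower. The siERRα and imatinib groups differ in both siRNA and drug.

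The 2 comparisons with siNC share the 3 siNC libraries, so the values of a pair are not independent, and they are set side by side as a description. ITGB3 was at −0.66 after knockdown and 0.57 with imatinib, LAMC1 at −0.21 and 0.69, ITGA4 at −0.26 and 0.17, and ITGB5 at −0.18 and 0.15 (log2 fold changes). For ITGB3 each of these calls was also made in every other fit. The imatinib calls of ITGA4 and ITGB5 and the knockdown calls of ITGB5 and LAMC1 were lost in some fits, as given above. ITGA6 was at −0.33 and −0.75. The direct differences between siERRα and imatinib were −1.23 ± 0.15, adjusted p = 1.03e-06 for ITGB3, −0.90 ± 0.07, adjusted p = 1.92e-09 for LAMC1 and −0.69 ± 0.07, adjusted p = 1.33e-07 for ITGB1 (edgeR).

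Some members passed only in the direct comparison. ITGA10 stood at 0.895, 0.738 and 0.635 CPM in siNC, 0.545, 0.610 and 0.540 CPM in siERRα and 0.895, 0.781 and 1.37 CPM with imatinib, and the difference of −0.84 ± 0.27, adjusted p = 0.0150 (edgeR) was lost without S18, the highest library. ITGA2B stood at 1.01, 1.04 and 0.953 CPM in siNC, 0.755, 0.778 and 0.772 CPM in siERRα and 1.17, 1.46 and 1.18 CPM with imatinib, with the siERRα libraries lowest and a difference of −0.72 ± 0.21, adjusted p = 0.00782. LAMC3 stood at 2.21, 3.26 and 2.62 CPM in siNC, 2.14, 2.46 and 2.57 CPM in siERRα and 3.66, 2.43 and 3.85 CPM with imatinib. The groups of LAMC3 overlapped, and the difference of −0.47 ± 0.18, adjusted p = 0.0376 was lost in 5 of 17 other fits. ITGB7 differed by −1.38 ± 0.47, adjusted p = 0.0191, a call that was lost without S4 or S17 and with DESeq2. ITGA3 differed by −0.39 ± 0.08, adjusted p = 0.000618 and was called in every other fit.

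The 4 tested members called in no comparison were a collagen receptor subunit and 3 laminin chains. ITGA2 stood at 23.0, 21.7 and 26.0 CPM in siNC, 22.1, 22.4 and 22.3 CPM in siERRα and 25.1, 23.4 and 23.2 CPM with imatinib, and its 3 groups lay within the range of the siNC libraries. LAMA2, the α chain of muscle laminin, stood at 5.84, 4.58 and 5.399 CPM in siNC, 4.78, 5.76 and 5.096 CPM in siERRα and 5.75, 6.95 and 6.26 CPM with imatinib, with overlap between all groups. LAMA3 stood at 1.45, 1.32 and 1.11 CPM in siNC, 2.01, 1.39 and 1.904 CPM in siERRα and 1.897, 1.59 and 1.53 CPM with imatinib, and the siNC libraries lay at or near the bottom. LAMB3 stood at 0.738, 0.814 and 0.953 CPM in siNC, 0.650, 0.442 and 0.721 CPM in siERRα and 0.678, 0.323 and 0.574 CPM with imatinib, highest in siNC, and its log2 fold changes of −0.48 ± 0.29 after knockdown and −0.67 ± 0.31 with imatinib carried a large SE.

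Other genes of the integrin pathway were followed in 4 lists, written from background knowledge with earlier results of these data known. Their shares beside those of all genes are given as a description. Of 28 tested adaptors and activators, which couple the β tail to actin and to signaling kinases, 9 were lower after knockdown and 19 did not pass (edgeR), or 32.1% lower against 12.6% of all genes. PARVA, a binding partner of integrin-linked kinase, was at −0.61 ± 0.05 and its relative PARVB at −0.82 ± 0.13 (log2 fold change ± SE). FERMT2, which activates integrins with talin, was at −0.41 ± 0.06, and the focal adhesion scaffold PXN at −0.33 ± 0.06. With imatinib 10 adaptors were higher (35.7%) and 4 lower (14.3%), against 21.4% and 20.3% of all genes, led by the tensins TNS3 (0.87 ± 0.05) and TNS1 (0.65 ± 0.07), the tetraspanin CD81 (0.50 ± 0.05) and the integrin inhibitor SHARPIN (0.56 ± 0.08). Between siERRα and imatinib 16 were lower (57.1%) and 4 higher (14.3%), against 26.6% and 25.6% of all genes, with PARVA at −0.96 ± 0.05 and the kinase SRC at −0.87 ± 0.09.

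Of 21 tested ligands in the matrix, 5 were lower (23.8%) and 2 higher (9.52%) after knockdown, against 12.6% and 11.4% of all genes. With imatinib 15 were higher (71.4%) and 5 lower (23.8%), against 21.4% and 20.3% of all genes. CCN2 and CCN1, secreted integrin ligands, were at −0.58 ± 0.06 and −0.53 ± 0.07 after knockdown, LTBP1, which holds latent TGF-β in the matrix, at −0.37 ± 0.08, and the elastic fiber protein FBLN5 at −0.24 ± 0.06. With imatinib the fibrillar collagen COL3A1 was at 1.49 ± 0.07, NPNT, a ligand of the ITGA8 receptor, at 1.29 ± 0.09, FBLN5 at 1.08 ± 0.06 and LTBP1 at 1.00 ± 0.08. In the direct comparison 15 were lower (71.4%) and 2 higher (9.52%) in siERRα, against 26.6% and 25.6% of all genes. MFGE8, an RGD ligand, was at −1.46 ± 0.09.

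Of 19 basement membrane partners of laminin, 15 were higher with imatinib and 4 did not pass, or 78.9% higher against 21.4% of all genes. NID1, which links laminin to collagen IV, was at 1.12 ± 0.07, the collagen IV chain COL4A4 at 1.77 ± 0.11, BCAM, a receptor for LAMA5, at 1.32 ± 0.09 and SPARC, a collagen-binding matrix protein, at 0.70 ± 0.05 (log2 fold change ± SE). After knockdown 3 were lower (COL15A1 at −0.50 ± 0.09, SPARC at −0.25 ± 0.05 and SGCE at −0.22 ± 0.06) and 1 was higher, SMOC1 at 1.08 ± 0.24, or 15.8% and 5.26%, against 12.6% and 11.4% of all genes. In the direct comparison 16 of the 19 were lower in siERRα (84.2%) and 1 was higher (5.26%), against 26.6% and 25.6% of all genes. Of 19 tested actin partners of focal adhesions, 5 were lower (26.3%) and 2 higher (10.5%) after knockdown, against 12.6% and 11.4% of all genes. With imatinib 5 were lower (26.3%) and 3 higher (15.8%), against 20.3% and 21.4% of all genes. The crosslinker ACTN1 was at −0.26 ± 0.06 after knockdown and −0.43 ± 0.06 with imatinib, and VASP, which extends actin filaments, at −0.58 ± 0.06 with imatinib. For the actin partners 4 were lower (21.1%) and 8 higher (42.1%) in siERRα than with imatinib, against 26.6% and 25.6% of all genes.

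Several members share exonic bases with a neighboring gene, and the strand setting of the counting is not given in the sources used here. ITGA1 overlaps PELO on the same strand by 499 bases, and PELO, at 69.0 to 71.4 CPM without imatinib and 56.4 to 60.1 CPM with it, was lower with imatinib like ITGA1. ITGB7 overlaps ZNF740 on the opposite strand by 1881 bases, where ZNF740 had 20.04 to 30.9 CPM against at most 0.539 CPM for ITGB7, and ITGAE overlaps HASPIN on the opposite strand by 427 bases. ITGB3 shares 2266 exonic bases on the same strand with the annotated gene ENSG00000259753, which had 0 counts in every library, and how reads from the shared bases were assigned is not known. ITGA7 overlaps BLOC1S1 on the opposite strand by 119 bases, and BLOC1S1 stood at 14.7 to 24.1 CPM without imatinib and 27.2 to 27.5 CPM with it, higher with imatinib like ITGA7. On the opposite strand, ITGA1 also overlaps ITGA2-AS1 by 1385 bases, and LAMB1 overlaps DLD by 300 bases. The values of ITGA1, ITGA7, ITGB3, ITGB7, ITGAE and LAMB1 are uncertain to that extent. LAMA5 overlaps ADRM1 on the opposite strand by 244 bases, and ADRM1, at 246 to 294 CPM without imatinib and 173 to 209 CPM with it, was lower with imatinib while LAMA5 was higher. ITGA4 overlaps CERKL by 2813 bases, and CERKL was at 0.164 CPM or less in every library. ITGB1P1, a processed copy of ITGB1, had 0.942 to 2.16 CPM.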

How the data were processed

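Poly(A) RNA of 9 libraries was sequenced as paired reads. Alignment by the authors was to GRCh38 with STAR 2.7.3a, and they deposited raw counts per gene symbol from featureCounts 2.0.1. Annotation release, strand setting and treatment of multi-mapped reads were not given in the sources used here. Groups followed the labels. Library totals were 37527236 to 49363002 counts, so that counts near the floor carry a large counting error.

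After TMM normalization and the filter filterByExpr (minimum count 10, minimum total 15), the 3 groups were compared in edgeR 4.0.16 (R 4.3.3) by its robust quasi-likelihood test, in 1 fit of 9 libraries, with Benjamini-Hochberg adjustment over all genes tested. Standard errors were derived from the log2 fold change and its F statistic. The test was tested on simulated data. Alternatives were DESeq2 1.42.0 (size factors and Wald test), limma-voom (limma 3.58.1), other filters, thinned counts, the 6 libraries compared, a replicate block and the omission of each library. Exon lengths, 3' UTRs and gene overlaps came from GENCODE release 44 (all 35 symbols matched). Python 3.11.15, pandas 2.3.3 and matplotlib 3.10.9 served for sequences and figures. Each tested member is named; those called in at least 1 comparison are given in every library, up to 20 by the size of their largest fold change, and ITGB5, LAMB1, ITGA3, ITGAV and ITGAE were added after their values were seen, because of their abundance or calls; from each partner list the 4 genes with the smallest p are named in part. A further marker list is not reported here. The members, lists and the heptamer were chosen with earlier results of these data known.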

Additional observations from a re-analysis of the deposited data

How the results depend on the processing

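Of the 50 member calls over the 3 comparisons, 40 were made in every other fit and 10 were lost in at least 1; among 846 refits 804 kept call and direction, 42 lost the call and 0 reversed. After ERRα knockdown 5 members were lower and 2 higher. When a log2 difference of 0.5 was also required these became 1 and 1 (3.45% each, against 5.28% lower and 1.98% higher over all genes). With imatinib 2 were lower in place of 5 and 10 higher in place of 13 (6.90% and 34.5%, against 7.02% and 10.6%). Between siERRα and imatinib 13 were lower in place of 18 and 4 higher in place of 7 (44.8% and 13.8%, against 15.7% and 10.6%). With the DESeq2 Wald test, and with at least 10 counts in every library, 1 member was higher after knockdown, because ITGB8 was not tested. Leaving out each library gave 3 to 7 lower and 1 to 3 higher members after knockdown, 4 to 5 lower and 10 to 14 higher with imatinib, and 16 to 19 lower and 7 higher in each fit between siERRα and imatinib. The knockdown count of lower members was 3 without siNC library S3 or siERRα library S4, and that of higher members was 1 without S3. By the longest transcript, the siNC shares of ITGB5, LAMA5 and LAMB1 in their families were 56.7%, 74.4% and 94.0%. The table's headers number the libraries 1 to 3 in each group, whereas the titles number all of them 1, and no source says that a number marks a shared culture. Deviations of same-numbered libraries correlated by −0.0996 to 0.147 (9 pairs) against −0.133 to 0.0926 for the others (18 pairs), and 0 of the 9 libraries correlated best with its own number in both other groups; with the replicate block the count with imatinib was 11 higher in place of 13, through ITGA4 and ITGB5. With 3 libraries per group, differences of low members such as ITGB7, ITGB8 and ITGA10 rest on few counts.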
